A study of Rattus norvegicus with 56 samples.

Results

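The comparison described here is that of HFhf with CON in the livers of female rats at ZT16, a point in the dark phase, and its libraries were picked by what the labels give for sex, hour and study group. They were 7 of the 56 libraries of the series, 4 HFhf livers and 3 CON livers. All came from Sprague-Dawley offspring at day 180 of age, kept on 12 h of light and 12 h of dark. HFhf offspring were born to dams fed a Western diet and given 25% fructose to drink from gestational day 11, and CON offspring to dams kept on regular chow. Livers of HFhf and CON females at ZT4 and of HFhf and CON males at ZT16 were used to ask where the diet difference depended on time or sex. Livers of IUGR-HFhf females at ZT16 were used for a comparison of HFhf with the same diet after growth restriction. Their dams had 50% calorie restriction from gestational day 10 until birth and the HFhf diet after it. The labels do not state what the offspring ate after weaning, nor which rats were littermates. The p-values therefore measure the spread between livers, which may share a litter. That spread was estimated within groups over all 56 libraries in 16 groups, and not from the 7 compared livers alone. Those groups include males at ZT4 and IUGR-RC livers. Dams of the IUGR-RC offspring had 50% calorie restriction from gestational day 10. No transgene or agent other than the diet is named for any group.

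Liver makes cholesterol from acetyl-CoA through the mevalonate pathway. The transcription factor SREBP2 drives the genes of that pathway when sterols in the endoplasmic reticulum are low, and dietary cholesterol holds SREBP2 back. Fatty acids that enter the liver from the diet are burned in mitochondria and peroxisomes under the control of the nuclear receptor PPARα, stored in lipid droplets or exported in lipoproteins. Many of these genes are expressed in a daily rhythm, which makes the time of day part of any comparison.

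The HFhf libraries held 15110105, 10889298, 9525492 and 10517209 counted reads, and the CON libraries 13642442, 8031922 and 11584928. The 10 most abundant genes took 32.2% to 39.5% of the reads in HFhf livers, against 28.1% to 32.1% in CON livers. The hepatocyte markers were high in every library, with a summed level of 256912 to 393921 CPM, the reads of a gene scaled to its library's TMM-adjusted total, in HFhf livers and 214431 to 261772 CPM in CON livers. The label of liver and these levels go together, and the skeletal muscle markers stayed at 1.26 to 2.45 CPM in HFhf livers and 1.27 to 5.37 CPM in CON livers. In bulk tissue, fewer cells of a type and less RNA per cell cannot be told apart.

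Of 11047 genes tested, 139 differed between HFhf and CON livers at an adjusted p under 0.05, which is 1.26% of the genes, and 1120 (10.1%) at an unadjusted p under 0.05. Of these, 65 rose in HFhf livers (0.588%) and 74 fell (0.67%). Here and below a called gene is one that passed edgeR's quasi-likelihood test with Benjamini-Hochberg adjustment over all genes, and "rose" and "fell" are used for called genes. The log2 fold changes are those of HFhf over CON, and their median over all genes was 0.00635. HFhf lay wholly above CON in 619 genes (5.6%) and wholly below it in 547 (4.95%), and 134 of the 139 called genes, 64 that rose and 70 that fell, were among them. The number of calls depended on the libraries used, with 86, 58 and 66 genes called without CON replicate 1, 2 or 3. Without HFhf replicate 1, 2, 3 or 4 it was 137, 116, 94 and 95. No called gene changed sign in any of these fits. The plot of log2 fold changes by gene list shows which groups of genes held the calls.

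**Figure D1:**
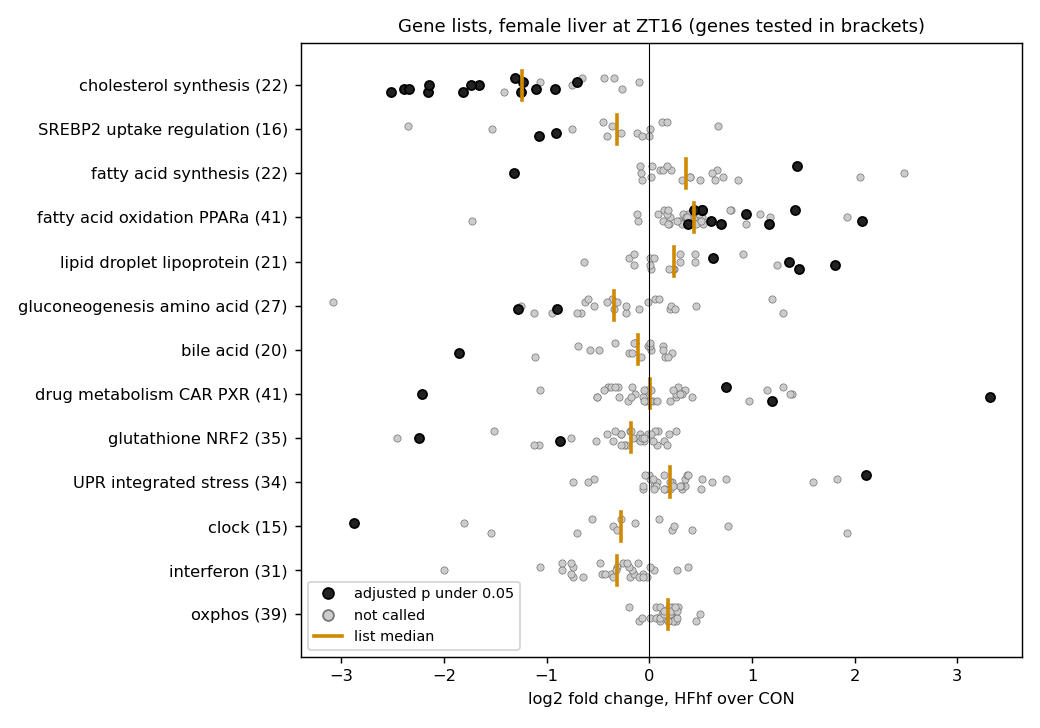
Log2 fold change of HFhf over CON in female livers at ZT16 for each tested gene of 13 gene lists, with called genes in black, other genes in grey and the list median as an orange line. All 22 cholesterol synthesis genes lie below 0, with a median of -1.24, and the fatty acid oxidation genes have a median of 0.43.

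Cholesterol synthesis was the list with the most called genes. Of its 22 tested genes 14 fell, none rose, and all 22 had a negative log2 fold change, with a list median of -1.24. HFhf lay wholly below CON in 16 of the 22. The summed level of the list was 1710 to 2876 CPM in HFhf livers, against 3841 to 5785 CPM in CON livers, so the groups did not overlap. The genes that fell ran from the entry step, Acat2 and Hmgcs1, to Dhcr7, at the last steps.

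The promoters of 4 genes that fell are shown because they span early and late steps of the pathway and all fell. Each is the RefSeq window of 300 bases in the build GRCr8, from 250 bases before to 50 bases after the gene's start, written 5′ to 3′ on the gene's strand. The motif CCAAT, the letters bound by the factor NF-Y, was searched on both strands without counting overlaps with other motifs, and capitals mark it (ATTGG where it lies on the other strand).
Hmgcs1, chr2:53382054-53382353, plus strand: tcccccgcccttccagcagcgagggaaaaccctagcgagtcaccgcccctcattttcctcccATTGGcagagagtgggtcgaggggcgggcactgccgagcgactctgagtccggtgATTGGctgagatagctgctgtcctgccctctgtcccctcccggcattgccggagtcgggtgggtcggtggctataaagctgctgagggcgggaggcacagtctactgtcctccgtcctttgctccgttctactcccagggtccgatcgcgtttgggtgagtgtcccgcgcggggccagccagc
Idi1, chr17:66547475-66547774, minus strand: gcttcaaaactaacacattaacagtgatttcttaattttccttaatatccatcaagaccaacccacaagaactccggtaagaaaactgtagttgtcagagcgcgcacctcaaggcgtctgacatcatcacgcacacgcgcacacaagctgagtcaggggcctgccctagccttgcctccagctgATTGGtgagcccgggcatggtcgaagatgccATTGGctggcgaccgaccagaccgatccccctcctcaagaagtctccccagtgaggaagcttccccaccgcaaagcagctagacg
Hsd17b7, chr13:84722705-84723004, minus strand: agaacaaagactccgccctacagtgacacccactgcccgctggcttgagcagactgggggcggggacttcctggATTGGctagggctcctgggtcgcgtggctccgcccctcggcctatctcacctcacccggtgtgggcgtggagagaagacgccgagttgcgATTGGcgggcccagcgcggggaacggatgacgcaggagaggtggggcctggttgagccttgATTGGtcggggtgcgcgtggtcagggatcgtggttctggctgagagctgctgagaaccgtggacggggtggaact
Msmo1, chr16:29746863-29747162, plus strand: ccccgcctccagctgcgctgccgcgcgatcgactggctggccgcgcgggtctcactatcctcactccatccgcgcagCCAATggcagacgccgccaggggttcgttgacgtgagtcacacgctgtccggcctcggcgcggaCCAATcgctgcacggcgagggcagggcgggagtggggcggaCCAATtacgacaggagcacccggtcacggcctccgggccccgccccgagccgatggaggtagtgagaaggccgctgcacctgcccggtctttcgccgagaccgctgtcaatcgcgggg
The motif was present in the promoters of 14 of the 17 tested cholesterol synthesis genes found in the table, and in 37.5% of all 33469 promoters. The 33469 promoters were not limited to genes tested here, so the shares are of unlike sets and were not compared by a test. It is a match of letters, and binding of NF-Y was not measured. Pmvk, Fdft1 and Sqle were among those not matched.

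Hmgcs1, which makes HMG-CoA from acetyl groups in the cytosol, was at 139, 97.9, 128 and 201 CPM in HFhf livers, against 502, 861 and 868 CPM in CON livers. Every HFhf liver was below every CON liver, and the log2 fold change was -2.39 ± 0.31 (SE; edgeR adjusted p = 5.67e-06). Mvk, the mevalonate kinase, was at 11.4, 12.0, 10.0 and 12.4 CPM in HFhf livers, against 26.3, 29.3 and 25.6 CPM in CON livers. Its spread within each group was small, and it fell by 1.23 ± 0.17 on the log2 scale (edgeR adjusted p = 9.41e-06).

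Idi1, which turns isopentenyl diphosphate into dimethylallyl diphosphate, was at 17.9, 23.5, 18.97 and 22.9 CPM in HFhf livers, against 69.95, 124 and 123 CPM in CON livers. The log2 fold change was -2.34 ± 0.40 (SE; edgeR adjusted p = 0.000501). Sqle, the squalene epoxidase and a rate-limiting enzyme of the pathway, was at 11.3, 12.8, 15.5 and 29.9 CPM in HFhf livers, against 64.1, 117 and 116 CPM in CON livers. HFhf replicate 4 was the highest of its group and still below the lowest CON liver, and Sqle fell by 2.52 ± 0.41 on the log2 scale (edgeR adjusted p = 0.000368). Fdft1, the squalene synthase between these steps, was at 66.6, 75.03, 78.3 and 136 CPM in HFhf livers, against 167, 246 and 248 CPM in CON livers, a log2 fold change of -1.31 ± 0.24.

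The sterol end of the pathway fell as well. Cyp51, the lanosterol demethylase, was at 109, 130, 158 and 217 CPM in HFhf livers, against 361, 647 and 531 CPM in CON livers. Msmo1, the methylsterol oxidase that acts after it, was at 45.4, 54.7, 45.8 and 91.9 CPM in HFhf livers, against 172, 323 and 300.5 CPM in CON livers. Hsd17b7, the sterol ketoreductase, was at 7.14, 7.17, 4.74 and 7.44 CPM in HFhf livers, against 18.5, 39.01 and 31.6 CPM in CON livers. In all 3 genes the groups were apart, with log2 fold changes of -1.74 ± 0.29, -2.16 ± 0.37 and -2.15 ± 0.29 (SE; the highest edgeR adjusted p was 0.000531).

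Acat2, Lss, Ebp and Dhcr7 were among the other genes of the list that fell, with log2 fold changes between -1.81 and -0.70. Lss, the lanosterol synthase, was the called member whose groups overlapped, since HFhf replicate 4 with 50.1 CPM was above CON replicate 3 with 48.97 CPM. Of the 8 genes not called, Mvd had the largest difference, with 2.98, 5.597, 2.94 and 13.9 CPM in HFhf livers and 14.96, 19.99 and 15.3 CPM in CON livers (log2 fold change -1.42 ± 0.40, edgeR adjusted p = 0.0683). Ggps1, which serves protein prenylation more than sterol synthesis, was nearest to 0, at -0.10 ± 0.16. HFhf replicate 4 was the highest of the HFhf livers in 19 of the 22 genes, and the plot of levels by gene shows most of them.

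**Figure D2:**
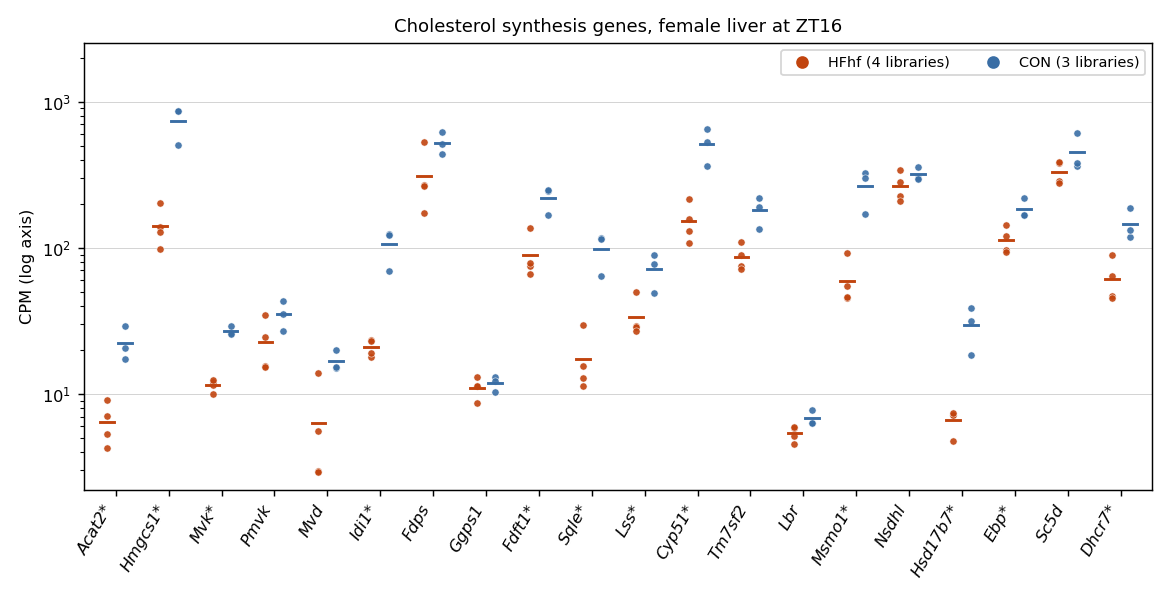
CPM on a log axis of 20 cholesterol synthesis genes in pathway order, in 4 HFhf livers (orange, left of each pair) and 3 CON livers (blue), with a bar at each group mean and an asterisk at each called gene. HFhf lies wholly below CON in 14 of the 20 genes plotted.

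Genes that regulate sterol uptake and export moved less than those of synthesis. Of 16 tested, 2 fell and none rose, with a median of -0.32. Stard4, a carrier of cholesterol in the cytosol, was at 29.9, 34.4, 30.5 and 36.4 CPM in HFhf livers, against 54.1, 57.5 and 72.7 CPM in CON livers, and fell by 0.91 ± 0.19 on the log2 scale (edgeR adjusted p = 0.00388). The call of Stard4 was lost without CON replicate 3 (edgeR adjusted p = 0.0704).

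Srebf2, which encodes SREBP2, was at 94.1, 107, 88.0 and 122 CPM in HFhf livers and 131, 130 and 148 CPM in CON livers, and was not called (log2 fold change -0.41 ± 0.12, edgeR adjusted p = 0.0827). HFhf was below CON in this gene without overlap. Abca1, the sterol exporter driven by the receptor LXR, had a log2 fold change of 0.00 ± 0.13.

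Of 41 tested genes of fatty acid oxidation, a list that holds PPARα and its targets, 10 rose in HFhf livers, none fell and 31 were not called. The list median was 0.43, 38 of the 41 log2 fold changes were positive, and HFhf lay wholly above CON in 19. The sum of the list was 11435 to 14422 CPM in HFhf livers, against 9365 to 10385 CPM in CON livers. The count of 10 was not stable to the libraries used, as it was 3, 4 and 8 without CON replicate 1, 2 or 3, 6 without HFhf replicate 1, 5 without HFhf replicate 3, and 5 in a fit of the 7 libraries alone. No member of the list fell in any of these fits.

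Within the mitochondrion, Hadha, the α subunit of the trifunctional protein of β-oxidation, was at 382, 355, 399 and 354 CPM in HFhf livers, against 241, 268 and 274 CPM in CON livers. It rose by 0.51 ± 0.12 on the log2 scale (edgeR adjusted p = 0.0101), and lost the call without CON replicate 1 (edgeR adjusted p = 0.106). Acadvl and Acadl, the dehydrogenases for very long and long chains, rose by 0.37 ± 0.08 and 0.60 ± 0.14, and Slc25a20, the carnitine carrier of the inner membrane, by 0.51 ± 0.14. Eci1 and Eci2, the isomerases for unsaturated chains, rose by 0.94 ± 0.23 and 0.44 ± 0.12. Cpt1a, the gatekeeper of mitochondrial entry, was at 446, 202, 351 and 324 CPM in HFhf livers and 199, 227 and 352 CPM in CON livers, and its groups overlapped.

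Vnn1, a pantetheinase of coenzyme A turnover and a PPARα target, was at 40.9, 24.1, 24.1 and 17.8 CPM in HFhf livers, against 2.82, 5.61 and 10.8 CPM in CON livers. It rose by 2.08 ± 0.36 on the log2 scale (edgeR adjusted p = 0.000531), with the 4 HFhf livers apart from the CON livers, and was not called in a fit of the 7 libraries alone (edgeR adjusted p = 0.172).

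Acot2, the mitochondrial acyl-CoA thioesterase, was at 67.8, 42.8, 46.7 and 31.8 CPM in HFhf livers, against 15.9, 18.2 and 19.2 CPM in CON livers, and rose by 1.42 ± 0.29 (edgeR adjusted p = 0.00388). Acot4, its peroxisomal relative, rose by 1.17 ± 0.31 (edgeR adjusted p = 0.0466). Acot genes lie in a family of similar sequence, and how reads shared between members were counted is not stated. Ehhadh, the peroxisomal bifunctional enzyme, had a log2 fold change of 0.43 ± 0.20 and was not called, and Ppara itself was at 0.19 ± 0.24.

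**Figure D3:**
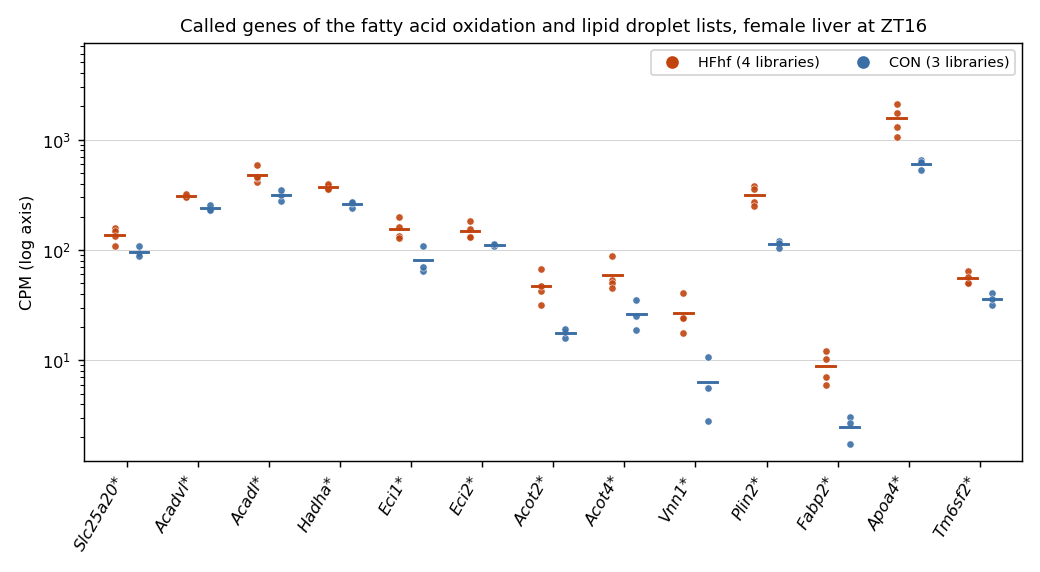
CPM on a log axis of 9 called genes of fatty acid oxidation and the 4 called genes of lipid droplets and lipoproteins in 4 HFhf livers (orange, left of each pair) and 3 CON livers (blue), with bars at group means. All 13 genes plotted were higher in HFhf livers, with no overlap between the groups.

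Of 21 genes of lipid droplets and lipoproteins, 4 rose and none fell, with a median of 0.24. Plin2, the coat protein of hepatocyte lipid droplets, was at 274, 249, 376 and 357 CPM in HFhf livers, against 122, 116 and 105 CPM in CON livers, a rise of 1.46 ± 0.29 on the log2 scale (edgeR adjusted p = 0.00221). Apoa4, an apolipoprotein of triglyceride-rich particles, was at 1052, 1314, 2120 and 1740 CPM in HFhf livers, against 654, 536 and 633 CPM in CON livers, a rise of 1.36 ± 0.24 (edgeR adjusted p = 0.000684). Both stayed called in every fit with 1 library left out.

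Fabp2, a fatty acid binding protein best known from intestine, was at 7.07, 5.95, 10.4 and 12.1 CPM in HFhf livers, against 3.09, 2.68 and 1.74 CPM in CON livers (log2 fold change 1.81 ± 0.48, edgeR adjusted p = 0.0411). Tm6sf2, which helps lipid loading of VLDL, was at 50.5, 50.2, 63.9 and 57.1 CPM in HFhf livers, against 40.6, 31.6 and 35.7 CPM in CON livers (0.62 ± 0.16, edgeR adjusted p = 0.0372). Each lost the call without any 1 of the CON replicates or without HFhf replicate 3 or 4, at edgeR adjusted p of up to 0.255. Apoa1, the main protein of HDL and the called member of the hepatocyte list, was at 1209, 927, 2322 and 3448 CPM in HFhf livers, against 588, 742 and 471 CPM in CON livers. It rose by 1.72 ± 0.40 (edgeR adjusted p = 0.0131), with HFhf replicates 3 and 4 highest, and was not called without CON replicate 1 or 3 or HFhf replicate 4 (edgeR adjusted p of 0.072 to 0.126).

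Of 22 genes of fatty acid synthesis, Elovl2 rose, Acss2 fell and 20 were not called. The list median was 0.36, and 18 of the 22 log2 fold changes were positive. Acss2, which activates acetate and is an SREBP target, was at 81.4, 88.3, 123 and 132 CPM in HFhf livers, against 247, 326 and 219 CPM in CON livers, and fell by 1.32 ± 0.27 on the log2 scale (edgeR adjusted p = 0.00411; 0.066 without CON replicate 2). Elovl2, the elongase of polyunsaturated chains, was at 190, 130, 229 and 278 CPM in HFhf livers, against 86.9, 83.5 and 58.3 CPM in CON livers, and rose by 1.44 ± 0.38 (edgeR adjusted p = 0.0393). The call of Elovl2 was lost in 5 of the 7 fits with 1 library left out, at edgeR adjusted p of 0.0895 to 0.243.

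HFhf livers differed among themselves in these genes. Scd2, a stearoyl-CoA desaturase, was at 84.6 and 112 CPM in HFhf replicates 1 and 2, at 876 and 645 CPM in HFhf replicates 3 and 4, and at 107, 109 and 14.8 CPM in CON livers. Fasn, the fatty acid synthase, was at 1773, 2748, 4513 and 6493 CPM in HFhf livers and 3991, 2169 and 1293 CPM in CON livers. The replicates also fall by title number, with HFhf replicates 1 and 2 and CON replicate 1 at lower numbers and HFhf replicates 3 and 4 and CON replicates 2 and 3 at higher ones, and the labels do not say what the numbers mean. Within the lower numbers, where CON has 1 library, the median of the list was -0.24, and within the higher numbers it was 0.76. The median of cholesterol synthesis was -1.22 and -1.14 within the lower and the higher numbers, and that of fatty acid oxidation 0.62 and 0.37, so these kept their sign.

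The title-number range was set as a covariate only in a fit of the 7 compared libraries. There 16 of the 50 named genes that were called lost the call, at edgeR adjusted p of 0.0503 to 0.452. Among them were Dmrta1, Rgs16, Lrtm2, Marco, Stac3, Nfe2, Apoa1, Elovl2, Vnn1, Hadha, Cyp2c22, Cyp2b3, Asns, Igf1 and Fmo1. In a fit of the same 7 libraries without the covariate 15 lost it, at edgeR adjusted p of 0.0531 to 0.3575. Among these were Cyp2a2, Ace, Dmrta1, Rgs16, Lrtm2, Stac3, Nfe2, Apoa1, Vnn1, Hadha, Cyp2c22, Fmo1, Cyp2b3 and Asns. Most of the genes named lost the call in both fits, and the part of the title numbers in those losses was not tested. All kept their direction in both fits.

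Of 27 genes of gluconeogenesis and amino acid use, 2 fell and none rose. The list median was -0.34, and 19 of the 27 log2 fold changes were negative. Asl, the argininosuccinate lyase of the urea cycle, was at 167, 176, 140 and 191 CPM in HFhf livers, against 444, 339 and 442 CPM in CON livers, a fall of 1.28 ± 0.21 on the log2 scale (edgeR adjusted p = 0.00032). Gls2, the liver glutaminase, was at 144, 135, 152 and 150 CPM in HFhf livers, against 323, 230 and 259 CPM in CON livers, a fall of 0.90 ± 0.19 (edgeR adjusted p = 0.00388; 0.0591 without CON replicate 1). Sds, the serine dehydratase, was at 12.4, 20.9, 9.26 and 9.30 CPM in HFhf livers and 166, 45.8 and 118 CPM in CON livers, and missed the threshold (-3.08 ± 0.88, edgeR adjusted p = 0.078). Pck1 and G6pc, which open and close gluconeogenesis, had log2 fold changes of -0.94 ± 0.50 and 1.20 ± 0.59 and were not called.

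Of 20 tested genes of the bile acid list, which holds transporters and receptors as well as enzymes of synthesis, 1 was called. Cyp8b1, the sterol 12α-hydroxylase that leads to cholic acid, was at 69.7, 113, 57.6 and 46.8 CPM in HFhf livers, against 335, 244 and 203 CPM in CON livers. It fell by 1.86 ± 0.35 on the log2 scale (edgeR adjusted p = 0.00136), and the groups were apart. Cyp7a1, the rate-limiting enzyme of the classic pathway, was at 332, 381, 279 and 272 CPM in HFhf livers and 661, 881 and 517 CPM in CON livers, and was not called (-1.12 ± 0.58, edgeR adjusted p = 0.534), although the groups did not overlap either.

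Of 41 drug metabolism genes, 3 rose and 1 fell, with a median of 0.01. Cyp2c22, a hepatic cytochrome P450, was at 1224, 869, 1910 and 1294 CPM in HFhf livers, against 678, 737 and 323 CPM in CON livers (log2 fold change 1.19 ± 0.25, edgeR adjusted p = 0.00437; 0.126 without CON replicate 3). Fmo1, a flavin monooxygenase, was at 25.5, 17.5, 17.2 and 3.94 CPM in HFhf livers, against 30.5, 82.8 and 113 CPM in CON livers (-2.21 ± 0.51, edgeR adjusted p = 0.0134). Fmo1 was not called without CON replicate 2 or 3 or HFhf replicate 4 (edgeR adjusted p of 0.0625 to 0.155). In a fit of the 7 libraries alone, neither Fmo1 (edgeR adjusted p = 0.322) nor Cyp2c22 (edgeR adjusted p = 0.216) was called. Cyp2b3, which rose with overlapping groups, lost the call in that fit and in 6 of the 7 fits with 1 library left out. The other gene that rose was Cyp2a2, given with the sex-biased genes.

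Of 35 glutathione and NRF2 genes, 2 fell and none rose, with a median of -0.18. Gstm2, a glutathione S-transferase of the mu class, was at 48.2, 41.5, 45.6 and 32.8 CPM in HFhf livers, against 199.9, 214 and 184 CPM in CON livers. It fell by 2.24 ± 0.38 on the log2 scale (edgeR adjusted p = 0.000464) and stayed called in every fit with 1 library left out. Gstm7 fell by 0.87 ± 0.23 (edgeR adjusted p = 0.0455) and lost the call whichever of the 7 libraries was left out. The P450 and glutathione transferase genes belong to families with near-identical members, and how shared reads were counted is not stated.

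Of 15 clock genes 1 was called, while 10 had non-overlapping groups. Ciart, a repressor of CLOCK and BMAL1, fell to 0.397, 0.70, 1.02 and 0.328 CPM in HFhf livers, against 2.48, 6.34 and 4.75 CPM in CON livers (log2 fold change -2.88 ± 0.73, edgeR adjusted p = 0.0311). Its call was lost in 5 of the 7 fits with 1 library left out, at edgeR adjusted p of 0.0669 to 0.175. HFhf lay wholly below CON in Nr1d1, Nr1d2, Dbp, Tef, Per3 and Cry2 as well as Ciart, and wholly above it in Arntl, Clock and Nfil3.

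Nr1d1, which encodes the repressor REV-ERBα, was at 3.44, 12.4, 10.6 and 8.53 CPM in HFhf livers and 23.2, 32.3 and 34.97 CPM in CON livers (-1.80 ± 0.52, edgeR adjusted p = 0.0823). Arntl, which encodes BMAL1 and is repressed by REV-ERBα, was at 20.3, 11.5, 18.7 and 15.9 CPM in HFhf livers and 7.51, 2.68 and 2.37 CPM in CON livers (1.93 ± 0.62, edgeR adjusted p = 0.139). These genes cycle, so the levels at ZT4 give their context. Nr1d1 averaged 91.7 ± 32.1 CPM in HFhf females at ZT4 and 21.99 ± 2.99 CPM in CON females at ZT4 (SD, n = 3 each), the reverse of the order at ZT16. The difference of the diet effects on Nr1d1, ZT16 minus ZT4, was -3.86 ± 0.75 on the log2 scale (edgeR adjusted p = 0.0668). It passed the threshold by DESeq2 (adjusted p = 0.00416) and in the fit of the compared groups alone (edgeR adjusted p = 0.0425). The same held without the IUGR-RC libraries (edgeR adjusted p = 0.0239) and without 4 libraries of other groups that stood apart (edgeR adjusted p = 0.038). RLE scaling and the fit without a count filter did not bring it under the threshold. With 1 library left out, it passed only without CON replicate 1 of ZT16 (edgeR adjusted p = 0.046) or HFhf replicate 2 of ZT4 (edgeR adjusted p = 0.049).

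**Figure D4:**
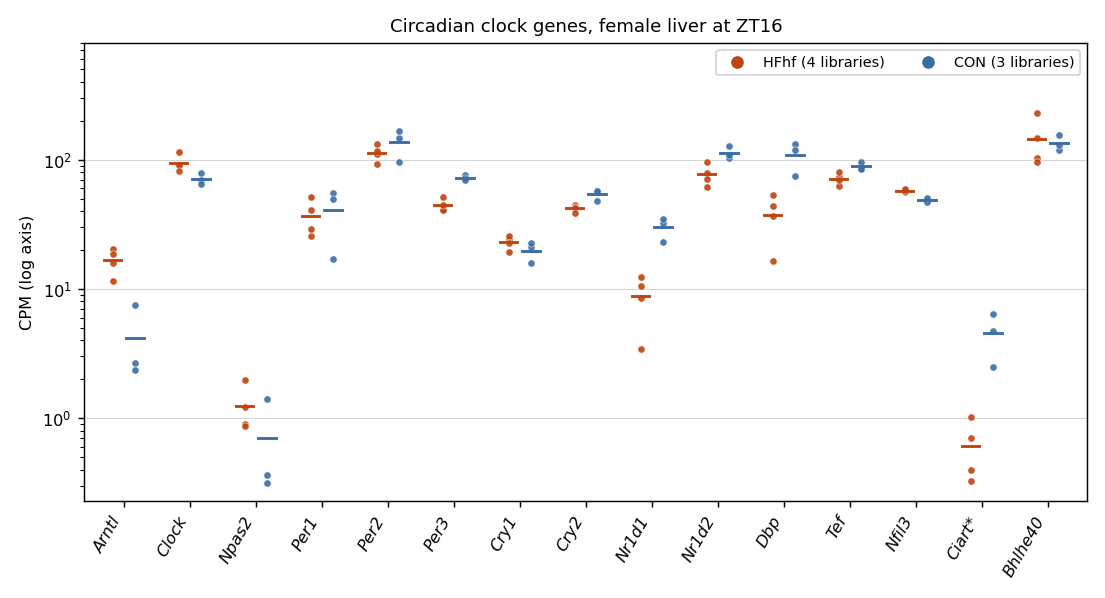
CPM on a log axis of 15 clock genes in 4 HFhf livers (orange, left of each pair) and 3 CON livers (blue), with bars at group means and an asterisk at the called gene. Nr1d1 sits at 3.44 to 12.4 CPM in HFhf livers, below 23.2 to 34.97 CPM in CON livers, and Arntl in the opposite order.

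Of 13 genes of the growth hormone and IGF axis 1 fell, and of 16 genes of glucocorticoid and insulin signals 1 fell. None rose in either list, and 1.26% of all genes tested were called. Igf1, the growth hormone target secreted by liver, was at 422, 376, 445 and 397 CPM in HFhf livers, against 540, 675 and 630 CPM in CON livers, and fell by 0.59 ± 0.12 on the log2 scale (edgeR adjusted p = 0.00527; 0.082 without CON replicate 2). Hsd11b1, which regenerates active glucocorticoid inside the cell, was at 3.17, 1.57, 2.82 and 2.63 CPM in HFhf livers, against 33.8, 14.9 and 15.4 CPM in CON livers, and fell by 3.07 ± 0.64 (edgeR adjusted p = 0.00471; 0.0613 without CON replicate 1). The receptor gene Nr3c1 was at 221, 219, 194 and 188 CPM in HFhf livers and 249, 265 and 262 CPM in CON livers and was not called (-0.33 ± 0.13, edgeR adjusted p = 0.276).

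Among genes with a sex bias in rat liver, Hao2, a peroxisomal hydroxyacid oxidase higher in females, fell by 1.44 ± 0.32 (edgeR adjusted p = 0.00934), with 11.1, 9.71, 11.3 and 8.64 CPM in HFhf livers, against 34.9, 32.3 and 15.9 CPM in CON livers. Cyp2a2, a male-biased P450, was at 2.71, 1.31, 6.78 and 10.4 CPM in HFhf livers, against 0.402, 0.244 and 0.791 CPM in CON livers, and rose by 3.32 ± 0.60 (edgeR adjusted p = 0.000875). Its level in males at ZT16 was 428 ± 50.9 CPM in HFhf livers (SD, n = 4) and 356 ± 69.3 CPM in CON livers (SD, n = 3). The call of Hao2 was lost without CON replicate 1 or 2 (edgeR adjusted p of 0.0919 and 0.0762), and that of Cyp2a2 in a fit of the 7 libraries alone (edgeR adjusted p = 0.174). The 14 male-biased genes tested had 1 other call, Hsd11b1, so the list held 1 rise and 1 fall.

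Where the 7 livers averaged 1 CPM or more, the largest rises were those of Vsx1 and Foxp2, which had few reads in CON livers. Vsx1, a homeobox factor known from the retina, had 96 reads over the HFhf libraries and 1 over the CON libraries, a ratio of 77.0 at equal depth with an exact 95% counting interval of 13.5 to 3074. Foxp2, a forkhead transcription factor, had 173 reads in HFhf livers and 3 in CON livers, a ratio of 46.3 with an interval of 15.6 to 227. These intervals cover counting error only. Rgs8 and Rgs16, which switch off G protein signals, rose by 4.25 ± 0.73 and 2.89 ± 0.76 on the log2 scale, Ace, the angiotensin-converting enzyme, by 3.21 ± 0.64, and Dmrta1, a DMRT family transcription factor, by 3.11 ± 0.78.

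Rgs16 was at 78.5, 272, 144 and 176 CPM in HFhf livers, against 19.99, 17.6 and 29.8 CPM in CON livers (edgeR adjusted p = 0.0436). It is the gene of this set with the most reads, and lost the call in 6 of the 7 fits with 1 library left out, at edgeR adjusted p of 0.0622 to 0.214. Dmrta1, Lrtm2, Ncam2 and Trpm3, also of the 10 largest rises, lost it in 4, 4, 3 and 4 of the 7, Dmrta1 at edgeR adjusted p of 0.0606 to 0.203. Vsx1, Foxp2, Rgs8, Ace and Cyp2a2 kept it in all 7.

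Among the 10 largest falls, taken from genes that averaged 1 CPM or more, with groups apart and a gene name that is no locus number, were Ciart, Sqle, Hmgcs1 and Hsd11b1. Dusp15, a dual specificity phosphatase, had 6 reads in HFhf livers and 169 in CON livers, and fell by 4.99 ± 0.90 on the log2 scale (edgeR adjusted p = 0.00173). Mab21l3 was at 0.331, 0, 0.452 and 1.20 CPM in HFhf livers, against 8.05, 10.4 and 8.78 CPM in CON livers, and fell by 4.27 ± 0.64 (edgeR adjusted p = 0.000105). Stac3, an adaptor of excitation and contraction in skeletal muscle, was at 2.84, 8.13, 2.71 and 7.0002 CPM in HFhf livers, against 118, 32.3 and 20.02 CPM in CON livers (-3.48 ± 0.75, edgeR adjusted p = 0.00731; 0.195 without CON replicate 1). Fam134b, a receptor for autophagy of the endoplasmic reticulum, and Nfe2, a factor of blood cell lineages, fell by 2.65 ± 0.50 and 2.48 ± 0.48, and Nfe2 lost the call without CON replicate 2, its highest CON liver with 8.41 CPM (edgeR adjusted p = 0.227).

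Marco, a scavenger receptor of Kupffer cells, the liver's resident macrophages, was at 0.463, 3.24, 1.36 and 1.42 CPM in HFhf livers, against 15.4, 21.1 and 38.8 CPM in CON livers. It fell by 3.98 ± 0.68 on the log2 scale (edgeR adjusted p = 0.000501), and was called whichever library was left out. It was not called in the fit of the 7 libraries with the title-number range as a covariate (edgeR adjusted p = 0.0718). None of the other 14 tested Kupffer cell markers was called. Their list, Marco included, had a median of -0.09, with 13 of 15 log2 fold changes negative, and summed to 762 to 922 CPM in HFhf livers, against 886 to 1043 CPM in CON livers. Clec4f, the lectin that defines Kupffer cells in rodents, was at 96.9, 160, 136 and 149 CPM in HFhf livers and 176, 172 and 212 CPM in CON livers (-0.47 ± 0.23, edgeR adjusted p = 0.496), and Cd68, a general macrophage marker, was at -0.05 ± 0.21. Outside the list, Mpeg1, macrophage expressed gene 1, was at 330, 220, 239 and 175 CPM in HFhf livers, against 368, 391 and 409 CPM in CON livers. It fell by 0.69 ± 0.18 on the log2 scale (edgeR adjusted p = 0.0318), and its call was not followed in the other fits. The part of Kupffer cell RNA in the falls of Marco and Mpeg1 was not tested.

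Of the 12 stellate cell and fibroblast genes, Rgs5, a pericyte marker, rose by 1.66 ± 0.43 (edgeR adjusted p = 0.035) and lost the call in 5 of the 7 fits with 1 library left out. The cholangiocyte markers summed to 7.27 to 9.52 CPM in HFhf livers and 10.2 to 13.3 CPM in CON livers, without overlap. Of the 6 tested, 4 log2 fold changes were negative and 2 positive, with a median of -0.13, and HFhf lay wholly below CON in 1. No endothelial, cholangiocyte, lymphocyte, neutrophil, erythroid or adipocyte marker was called. Only 1 of 6 B and plasma cell, 3 of 8 neutrophil, 4 of 8 erythroid and 7 of 11 T and NK cell markers were tested. The pancreatic gene Cpa1 was at 7.54, 8.92, 15.2 and 9.30 CPM in HFhf livers and 72.9, 209 and 75.4 CPM in CON livers, without a call (-3.55 ± 1.06, edgeR adjusted p = 0.117). Of the 8 pancreatic acinar markers 2 were tested, and the other went the opposite way, with a log2 fold change of 0.31. In females at ZT4, Cpa1 averaged 6.13 CPM in HFhf livers and 114 CPM in CON livers. In males at ZT16 it averaged 0 CPM in HFhf livers and 0.0439 CPM in CON livers. The part of Cpa1 in other results was not tested.

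Several lists held no called gene although their members leaned one way. Of 39 oxidative phosphorylation genes, 36 had a positive log2 fold change, with a median of 0.18, and HFhf lay wholly above CON in 10. Of 31 interferon response genes, 27 were negative, with a median of -0.31, and HFhf lay wholly below CON in 8. Usp18, an interferon-induced protease, was at 6.02, 6.65, 10.0 and 6.13 CPM in HFhf livers and 13.5, 19.4 and 12.3 CPM in CON livers (-1.06 ± 0.50, edgeR adjusted p = 0.444). Of 25 cell division genes, 23 were positive, with a median of 0.36, but HFhf lay wholly above CON in only 1. Their summed level overlapped, at 150 to 224 CPM in HFhf livers and 130 to 178 CPM in CON livers. Among all genes tested, 51.2% had a positive log2 fold change. Members of a list are measured in the same livers and are not independent. The lists of fructose and glucose use, acute phase, cytosolic ribosome, heat shock and pericentral genes had no call either, and that of the stress responses of the endoplasmic reticulum and of amino acid shortage had 1 of 34, Asns, the asparagine synthetase, which rose by 2.11 ± 0.53 (edgeR adjusted p = 0.0276) and lost the call in 5 of the 7 fits with 1 library left out.

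The 139 genes were then read in groups that share no library with this comparison. At ZT4 in females 60 of the 65 risen genes and 72 of the 74 fallen genes had the same sign, against 49.5% and 50.3% of all genes with that sign, and 17 and 23 of them were called there, where 1.16% of all genes were called, 0.57% rising and 0.588% falling. In males at ZT16 the same sign was seen in 59 and 69, against 51.1% and 48.9% of all genes, and 8 and 7 were called, where 0.932% of all genes were called, 0.588% rising and 0.344% falling. The median log2 fold change of the risen genes was 1.11 here, 0.57 for females at ZT4 and 0.48 for males at ZT16, and that of the fallen genes -1.28, -0.89 and -0.55. Since the genes were chosen for passing here, the difference between these medians was not tested.

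**Figure D5:**
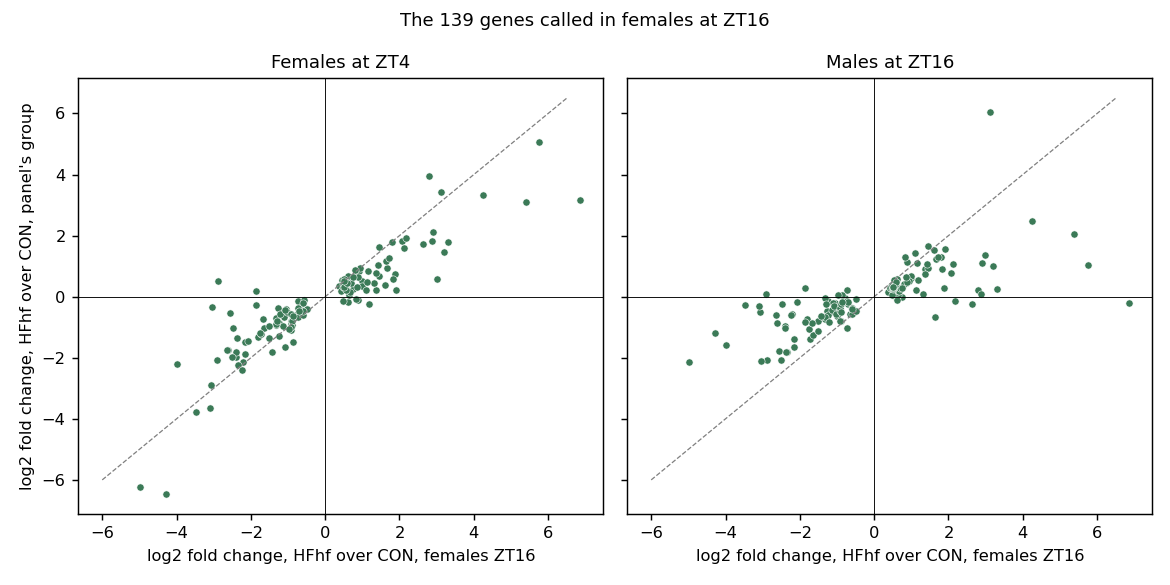
Log2 fold change of HFhf over CON for the 139 genes called at ZT16 in females (x axis), against the value for females at ZT4 (left panel) and for males at ZT16 (right panel), with a dashed line of equal values. Of the 139 genes, 132 have the same sign in females at ZT4 and 128 in males at ZT16.

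The difference of the effects itself was tested for time and for sex. No gene passed for ZT16 minus ZT4 in females with edgeR (0 of 11047, 0%), with 484 (4.38%) at an unadjusted p under 0.05, and DESeq2 called 3, Nr1d1, Lingo4 and RGD1560242. None passed for females minus males at ZT16 with edgeR (0%), with 497 (4.5%) at an unadjusted p under 0.05, and DESeq2 called 3, Cyp2a2, Slc22a8 and RGD1560242. RGD1560242 was at 8.33, 8.31, 8.81 and 0 CPM in HFhf livers and listed at 0 in all CON livers, and its edgeR adjusted p in females at ZT16 was 0.426. Of the 139 genes, 25 differed from females at ZT4 and 50 from males at ZT16 at an unadjusted p under 0.05, with a lowest edgeR adjusted p of 0.6 and 0.381. Since they were chosen for passing here, these counts are given without a test.

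The median for cholesterol synthesis was -1.24 here, -0.90 for females at ZT4 and -0.53 for males at ZT16, with 14, 8 and 5 genes falling. Sqle fell in all 3, with log2 fold changes of -2.52, -1.98 and -2.09. Hmgcs1 was at 181 ± 45.4 CPM in HFhf males at ZT16 (SD, n = 4) and 371.5 ± 107 CPM in CON males at ZT16 (SD, n = 3), while CON females at ZT16 were at 744 ± 209 CPM (SD, n = 3). The difference of its diet effect, females minus males, was -1.35 ± 0.43 (edgeR adjusted p = 0.665). Cyp8b1 differed by -1.57 ± 0.51 between ZT16 and ZT4 in females (edgeR adjusted p = 0.806), with 337 ± 131 CPM in HFhf females at ZT4 and 411 ± 87.1 CPM in CON females at ZT4 (SD, n = 3 each).

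Set directly against IUGR-HFhf livers, HFhf livers differed in 1 of 11047 genes (0.00905%), with 627 (5.68%) at an unadjusted p under 0.05. Clip1, a linker of microtubule ends, was at 58.7, 60.3, 58.7 and 64.2 CPM in HFhf livers, against 34.4 to 37.2 CPM in 4 IUGR-HFhf livers (log2 fold change 0.73 ± 0.14, edgeR adjusted p = 0.0284). The call was lost without any 1 of the 4 IUGR-HFhf libraries and without HFhf replicate 2, 3 or 4, and DESeq2 called 4 genes. Clip1 also rose against CON, where it was at 38.7, 43.4 and 35.5 CPM (0.63 ± 0.15, edgeR adjusted p = 0.0162; 0.0668 to 0.16 without CON replicate 1 or 3 or HFhf replicate 4). Hmgcs1 was at 142 ± 43.5 CPM in HFhf livers and 213 ± 84.1 CPM in IUGR-HFhf livers (SD, n = 4 each), a log2 difference of -0.59 ± 0.28 (edgeR adjusted p = 0.847). Against the CON libraries that both share, Hmgcs1 had log2 fold changes of -2.39 in HFhf and -1.80 in IUGR-HFhf, Plin2 1.46 and 1.501, and Marco -3.98 and -4.89.

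The authors' deposited table for this comparison lists 180 genes at an adjusted p under 0.05, 94 higher and 86 lower in HFhf. It shares 138 of them with the 139 genes called here, 76.7% of its list and 99.3% of the list here, all in the same direction.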

How the data were processed

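RNA of 56 rat livers was sequenced after depletion of ribosomal RNA with a stranded kit, per the labels' protocols, although another label gives polyA RNA and the source label names mouse. The authors deposited raw read counts per gene for every library. Per the submitters' processing notes, FastQC, STAR, featureCounts of Subread, DESeq2 and the build rn6 were used, while versions, the strand setting and the treatment of shared reads are not given in the sources used here. The authors also deposited log2 fold changes with p-values and adjusted p-values for this comparison.

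Counts were tested with edgeR 4.0.16 in R 4.3.3 (TMM scaling, filterByExpr, robust quasi-likelihood F test, 2-sided), in 1 fit of 56 libraries and 16 groups with 40 residual degrees of freedom. Of 17337 genes, 2487 had no read and 11047 were tested. P-values were adjusted over all of them, and the threshold was 0.05. CPM use TMM-scaled library sizes. Total counts of the 56 libraries ran from 5549530 to 19065339. The median half-width of a 95% confidence interval was 0.379 on the log2 scale. The code was tested on simulated data.

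The members and the 36 gene lists were chosen with earlier results of these data known. Named genes were the 10 largest rises and falls with a mean of at least 1 CPM, groups apart and a gene name that is no locus number, up to 4 per list by p, up to 2 per list without a call, up to 4 per direction for the other contrasts, and 8 genes taken from earlier results of these data. Further list members named for their step, Mpeg1 and the promoters shown were chosen after their values were seen. Some members of the lists are counted but not reported here by name. Alternatives were RLE scaling, no count filter, DESeq2 1.42.0, fewer libraries or groups, and the title-number range as a covariate.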

Additional observations from a re-analysis of the deposited data

Results flagged for a closer look

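Within the 4 HFhf livers, 7 of 102 named genes had 1 liver far from the other 3, by a gap to the nearest liver over the group's range above Dixon's 95% critical value. Chance flags about 1 in 20 groups, which is 5.1 of 102. Rgs8 was highest in HFhf replicate 4, at 2.18, 1.49, 2.15 and 6.02 CPM in the 4 livers (0.847). Lrtm2 was highest in HFhf replicate 3, at 11.4, 9.71, 40.4 and 8.42 CPM (0.906). Col3a1, a fibrillar collagen, was highest in HFhf replicate 2, at 119, 160, 116 and 123 CPM (0.838). The sterol enzyme gene Hsd17b7 was lowest in HFhf replicate 3, at 7.14, 7.17, 4.74 and 7.44 CPM (0.89). Gckr, the glucokinase regulator, was highest in HFhf replicate 1, at 131, 81.2, 79.8 and 81.8 CPM (0.961). Gstt3, a glutathione transferase, was lowest in the same liver, at 71.1, 140, 134 and 133 CPM (0.91). Usp18 was highest in HFhf replicate 3, at 6.02, 6.65, 10.0 and 6.13 CPM (0.844). The flags fell on all 4 livers.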

How the results depend on the processing

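With 1 library left out, the calls of HFhf against CON ranged from 58 to 137, those of fatty acid oxidation from 3 to 9, the differences ZT16 minus ZT4 from 0 to 2 and females minus males from 0 to 1, and HFhf against IUGR-HFhf from 0 to 2. DESeq2 gave 3, 3 and 4 calls for these last comparisons. With only the compared groups, ZT16 minus ZT4 had 3 calls, HFhf against IUGR-HFhf 5 and fatty acid oxidation 5, and 77 of the 139 genes stayed among 117 called. With the title-number range as a covariate fatty acid oxidation had 6 calls, and 81 of the 139 genes stayed among 139 called. ZT16 minus ZT4 had 4 calls without the IUGR-RC libraries, and 3 without 4 libraries of other groups that stood apart, an alternative chosen after seeing the data. The cause of these changes was not tested. In every other setting the calls of HFhf against CON stayed between 112 and 188. Of 1428 values of named genes under these settings 1273 kept their side of the threshold, 124 lost the call and 31 gained it. No value changed sign where the gene was called in the main fit or under the setting. Sign changes of genes called in neither were not counted. RLE scaling moved the median of all genes to 0.00106. No paired analysis was possible because the labels give no replicate number shared between groups. Genes with few reads are limited by depth.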
